A study of Homo sapiens with 6 samples.

Results

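KAT2A and KAT6A encode enzymes that place acetyl marks on histones and WDR5 a scaffold of histone methyltransferase complexes, and 30 of the 3653 guides of a pooled CRISPR/Cas9 knockout library carry their names, 10 for each gene. All guides assigned to these genes in the count table were taken. The numbering of the library fell into a first set of guides, numbered up to 1495, in which the numbers follow the alphabet of gene names, and a second set from 1496 on. Each of the 3 genes had 5 guides in each set. Guides averaging 30 or more counts at day 0 were tested, and these were 29 of the 30 (15 of the first set and 14 of the second set) and 3607 guides of the whole library.

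All 6 libraries came from HS-SY-II Cas9, an established line of human synovial sarcoma that carries an SS18::SSX fusion and expresses Cas9, transduced with the guide library and selected with puromycin. The groups were tumours of cell line xenografts grown under the skin of athymic nude mice, cells cultured for 14 days, and day 0 cells frozen after selection, with 2 libraries each. Nude mice lack T cells but keep other parts of immunity, and the cells are 1 established line. The genes of the library had been picked as more needed by synovial sarcoma lines than by other cancer lines, so the 3 genes were part of a set chosen for such effects. Guide counts measure cassettes in genomic DNA and say nothing of RNA, so the identity of the cells could not be checked with marker genes.

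Acetyl groups on histone H3 are placed by acetyltransferases and go with open, transcribed chromatin, and methyl groups on H3 mark promoters or silent regions by position. KAT2A, also called GCN5, is the catalytic acetyltransferase of the SAGA and ATAC coactivator complexes. KAT6A, also called MOZ, is an acetyltransferase of the MYST family that works in a complex with a BRPF scaffold protein. WDR5 is a scaffold with WD40 repeats that holds together the H3 methyltransferase complexes of the MLL and SET1 enzymes, and it is also found in ATAC and in a noncanonical form of the polycomb complex PRC1. In a dropout screen, a guide that impairs growth becomes rarer among the cassettes, and its count falls relative to the others.

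On hg38, WDR5 lies on chromosome 9 from 134135365 to 134159968 on the plus strand, with 13 coding exons in its MANE Select transcript and a protein of 334 residues. KAT2A lies on chromosome 17 from 42113111 to 42121367 on the minus strand, with 18 coding exons and 837 residues. KAT6A lies on chromosome 8 from 41929479 to 42051994 on the minus strand, with 16 coding exons and 2004 residues, the longest coding sequence of the 3. Guide sequences were not used here, so the exon that each guide cuts is not given.

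Depth was 3394352 to 21854232 counts per library, and day 0 replicate 1 was the deepest. Values below are counts per 1000000 reads after TMM scaling (CPM), and fold changes are log2. The replicates of a group had a Pearson r of log2 CPM over all tested guides of 0.66 for the tumours, 0.85 for day 14 and 0.67 for day 0, across guides, which are not independent replicates. Non-targeting guides, 183 in number, stood at a median of 0.57 in tumours and 0.50 at day 14 relative to day 0 under this scaling, so scaling to them instead lowers each fold change against day 0 by about that much. Both arms were set against the same day 0 libraries, so that the values of the 2 arms are given side by side and not as separate evidence.

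The second set guides of all 3 genes had lower mean CPM in the tumours and at day 14 than at day 0, except 1 guide of WDR5 in both arms and 1 of KAT6A in the tumours, while most first set guides did not. At day 14, 13 of the 14 second set guides were lower in both libraries than in both day 0 libraries, and 4 of the 15 first set guides were, against 31.5% of all tested guides. In the tumours these counts were 11 of 14 and 3 of 15, against 30.6% of all tested guides. Both percentages pool the 2 sets, and the share within each set was not computed. The median log2 fold changes of the second set guides at day 14 were -4.88 for WDR5, -4.15 for KAT2A and -1.93 for KAT6A, and those of the first set guides were 0.74, 0.00 and 0.36. In the tumours the second set medians were -3.55 for WDR5, -2.51 for KAT2A and -3.13 for KAT6A, and the first set medians were 0.84, -0.21 and -0.17. The KAT2A value turned on the tumours, with a second set median of -4.25 without tumour replicate 1 and -6.06 without replicate 2. Both values lie below the -2.51 of the joint fit. The KAT6A median was -2.66 and -4.34. Within each tumour, second set medians of the log2 ratio to the day 0 mean were -3.23 and -4.37 for WDR5. They were -5.59 and -4.13 for KAT2A and -4.21 and -2.62 for KAT6A. The joint medians in tumours therefore do not rank the 3 genes.

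The split between the sets was not limited to these genes. Among the other genes with guides in both sets, second set guides had a median of -0.65 in tumours and -0.60 at day 14 against day 0, and first set guides had medians of 0.52 and 0.41, near those of the non-targeting guides. The members' second set medians were thus below the middle of a class that was itself shifted. The lower 5% of those other second set guides began at -4.62 in tumours and -3.53 at day 14.

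WDR5 had the lowest second set median at day 14, carried by 4 of its 5 guides. sgRNA_1586 had 41.3 and 18.3 CPM in tumours and 12.5 and 14.4 CPM at day 14, against 501 and 292 CPM at day 0. sgRNA_1587 had 11.4 and 14.6 CPM in tumours and 10.4 and 6.21 CPM at day 14, against 323 and 484 CPM at day 0. For both guides every library of either arm was more than 5-fold below every day 0 library. sgRNA_1588, the WDR5 guide that started lowest, had 11.9 and 0.761 CPM in tumours and 0.784 and 0.665 CPM at day 14, against 48.1 and 99.2 CPM at day 0. Each day 14 library held 3 reads of it, which is 1.06% of the day 0 mean in replicate 1 (95% exact Poisson interval 0.219% to 3.11%) and 0.903% in replicate 2 (0.186% to 2.64%), both for counting error only. sgRNA_1589 had 20.0 and 40.9 CPM in tumours and 47.0 and 64.3 CPM at day 14, against 345 and 151 CPM at day 0. Its groups did not overlap either, but its distance from day 0 was the smallest of these 4 guides.

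The remaining second set guide of WDR5, sgRNA_1590, had 141 and 186 CPM in tumours and 272 and 71.6 CPM at day 14, against 54.9 and 137 CPM at day 0. Its day 14 libraries lay on both sides of its second day 0 library, and its log2 fold changes were 0.77 (SE 0.807) in tumours and 0.84 (SE 0.809) at day 14. It stood higher than 107 of the 183 non-targeting guides in tumours or level with them, and 145 of them at day 14. Of the set's WDR5 reads, sgRNA_1590 held 79.3% in day 14 replicate 1 (95% Wilson interval 77.1% to 81.4%) and 45.6% in replicate 2 (41.9% to 49.2%). These shares reflect both the loss of the other WDR5 guides of this set and its own level of 272 and 71.6 CPM.

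The 5 first set guides of WDR5 were all above their day 0 libraries at day 14 in both replicates, as 27.1% of all tested guides were, with log2 fold changes from 0.43 to 0.84 that include the shift of the non-targeting guides. In the tumours they ran from 0.16 to 2.77. The highest was sgRNA_1455, with 795 and 5030.2 CPM in tumours and 725 and 608 CPM at day 14, against 384 and 472 CPM at day 0. In tumour replicate 2 it alone held 79.2% of the first set WDR5 reads (95% Wilson interval 78.8% to 79.6%), and without that tumour its log2 fold change was 0.90 in place of 2.77.

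For KAT2A all 5 second set guides were below both day 0 libraries at day 14 in both replicates. In the tumours the same guides split. sgRNA_2466 had 2.49 and 1.07 CPM in tumours and 24.8 and 27.3 CPM at day 14, against 189 and 147 CPM at day 0. sgRNA_2470 had 2.49 and 0.913 CPM in tumours and 9.92 and 4.66 CPM at day 14, against 172 and 87.5 CPM at day 0. These guides were scarce in both tumours, with 6 to 9 reads each.

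Of the other KAT2A guides of the second set, sgRNA_2467 and sgRNA_2468 differed between the tumours by far more than between the cultures. sgRNA_2467 had 1.94 and 245 CPM in tumours and 29.3 and 36.4 CPM at day 14, against 391 and 186 CPM at day 0. sgRNA_2468 had 0.554 and 132 CPM in tumours and 6.01 and 10.9 CPM at day 14, against 168 and 158 CPM at day 0. The first tumour held 2 reads of sgRNA_2468, or 0.341% of its day 0 mean (95% exact Poisson interval 0.0413% to 1.23%), whereas the second held 868. sgRNA_2469 ran the other way, with 63.2 and 11.1 CPM in tumours and 3.40 and 10.9 CPM at day 14, against 247 and 176 CPM at day 0. A single guide thus made up most KAT2A second set reads in each tumour, sgRNA_2469 with 89.4% (95% Wilson interval 85.0% to 92.6%) in replicate 1 and sgRNA_2467 with 62.8% (60.9% to 64.7%) in replicate 2.

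The first set guides of KAT2A moved in both directions. Their log2 fold changes ran from -0.30 to 0.73 in tumours and from -0.93 to 1.04 at day 14, and no unadjusted p was under 0.05. The lowest at day 14 was sgRNA_576, with 269.7 and 298 CPM in tumours and 170.3 and 192 CPM at day 14, against 452 and 236 CPM at day 0. Its log2 fold change was higher than or level with 18 of the 183 non-targeting guides in tumours and 2 of them at day 14.

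KAT6A had the second set median nearest to 0 at day 14 of the 3 genes, and 2 of its guides were far rarer in tumours than in culture. sgRNA_1718 had 3.33 and 2.59 CPM in tumours and 33.4 and 57.9 CPM at day 14, against 287 and 205 CPM at day 0. In the first set, sgRNA_588 had 16.4 and 14.9 CPM in tumours and 69.5 and 174 CPM at day 14, against 288 and 242 CPM at day 0. Both tumours were below both cultures, and both cultures were below day 0, for each of these guides. The log2 fold change of sgRNA_588 in tumours, -4.08, was below all 183 non-targeting guides, and it was the only first set member guide for which this held.

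Among the other KAT6A guides of the second set, sgRNA_1719 had 18.0 and 20.7 CPM in tumours and 25.3 and 64.3 CPM at day 14, against 163 and 222 CPM at day 0. sgRNA_1717 had 6.93 and 61.6 CPM in tumours and 120.1 and 92.2 CPM at day 14, against 245 and 286 CPM at day 0. sgRNA_1716 had 93.7 and 813 CPM in tumours and 123 and 20.4 CPM at day 14, against 296 and 186 CPM at day 0. The last guide was below day 0 in tumour replicate 1 and far above it in replicate 2, where it held 90.5% of the second set KAT6A reads (95% Wilson interval 89.8% to 91.3%). Without tumour replicate 2 its log2 fold change in tumours was -1.36 in place of 0.91. The fifth guide, sgRNA_1720, had 0 counts in all 6 libraries, day 0 included, which allows up to 0.137 CPM before TMM scaling in the deepest library and 0.884 CPM in the shallowest, and it was not tested.

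The other first set guides of KAT6A ran from -0.76 to 1.18 in tumours and from -0.69 to 0.62 at day 14. The highest in tumours was sgRNA_589, with 763 and 861 CPM in tumours and 463 and 451 CPM at day 14, against 424 and 291 CPM at day 0.

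The spread between replicates of a group was widest in the tumours. The median absolute log2 difference between replicates of the 14 second set member guides was 1.07 in tumours (largest 6.42), 0.71 at day 14 (largest 2.53) and 0.63 at day 0 (largest 1.30). For the non-targeting guides these medians were 0.90, 0.32 and 0.39. The wider spread in tumours was thus also present in guides without a target gene.

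Each guide was then tested in a single edgeR quasi-likelihood fit of the 6 libraries, and p-values were adjusted by Benjamini-Hochberg over all 3607 guides. In this fit of 2 libraries per group, 4 of the 29 member guides fell in tumours against day 0, where 1.14% of all guides did. They were sgRNA_2466 of KAT2A at -6.58 (SE 1.12, adjusted p = 0.0426), sgRNA_1718 of KAT6A at -6.38 (SE 0.928, adjusted p = 0.0426), sgRNA_1587 of WDR5 at -4.95 (SE 0.724, adjusted p = 0.0426) and sgRNA_588 of KAT6A at -4.08 (SE 0.755, adjusted p = 0.0470). All 4 were lower in 2 of 2 tumours. Each gene had at least 1 guide among them, and no member guide rose, while 0.554% of all guides did. At an unadjusted p under 0.05, 9 member guides were lower (12.8% of all guides) and 2 were higher (12.9% of all guides), namely sgRNA_1455 of WDR5 and sgRNA_589 of KAT6A. These 4 calls were lost when either day 0 or either day 14 library was left out (adjusted p from 0.120 to 0.460) and in an edgeR fit of tumours and day 0 alone, which called 0 guides (0% of all guides, adjusted p of these 4 from 0.109 to 0.110). With a replicate block in the edgeR fit they were not called either (adjusted p 0.0921 by the numbers of the labels and 0.188 by transduction). DESeq2 called 9 member guides lower in tumours (10.3% of all guides) and limma on the authors' normalized values called 8 (7.21% of all guides), and the 4 guides were among them in both.

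At day 14 against day 0, edgeR called 0 of the 29 member guides lower at an adjusted p of 0.05, as it did of all guides (0% called). The lowest adjusted p among the members was 0.158, of sgRNA_1587 of WDR5, at a log2 fold change of -5.60 (SE 0.749, edgeR, n = 2 libraries per group). At an unadjusted p under 0.05, 9 member guides were lower, all of the second set, against 7.18% of all guides: 4 of WDR5, 3 of KAT2A and 2 of KAT6A. DESeq2 called 7 member guides lower (3.47% of all guides) and limma on the authors' normalized values called 3 (1.33% of all guides). The fit that left the tumours out called 11 of 29 lower (8.12% of all guides), 4 of WDR5, 5 of KAT2A and 2 of KAT6A, all of the second set. The count of called guides at day 14 therefore depended on whether the tumours entered the same fit.

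Guides of 1 gene share a target and are not replicates, so the reads of each gene in each set were also summed and tested over libraries, among 647 such sums. Of the WDR5 second set, the sum was 225 and 261 CPM in tumours and 343 and 157 CPM at day 14, against 1272 and 1163 CPM at day 0. It fell in tumours by a log2 fold change of -2.32 (SE 0.468, edgeR adjusted p = 0.0119, 10.8% of all sums called lower) and at day 14 by -2.28 (SE 0.467, edgeR adjusted p = 0.0418, 2.63% of all sums called lower), in 2 of 2 libraries of each arm. Its size is set in large part by sgRNA_1590, the guide that did not become rarer. In the edgeR fit of tumours and day 0 alone the tumour value was -2.23 and was not called (adjusted p = 0.0555). Leaving out a day 0 or a day 14 library ended both calls, with values from -2.91 to -1.78 at day 14 (edgeR adjusted p 0.224 to 0.607) and from -2.38 to -2.16 in tumours (edgeR adjusted p 0.0528 to 0.158), and a replicate block by transduction ended the day 14 call (edgeR adjusted p = 0.0613).

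For KAT2A the second set sum was 70.7 and 391 CPM in tumours and 73.4 and 90.0 CPM at day 14, against 1167 and 753 CPM at day 0. Its log2 fold changes were -2.06 in tumours (SE 0.766, edgeR adjusted p = 0.0648) and -3.55 at day 14 (SE 0.817, edgeR adjusted p = 0.0511), and neither passed the threshold. The day 14 value was the lowest of the 3 genes. Scaling to the non-targeting guides (-4.10, edgeR adjusted p = 0.0228) and limma on the authors' normalized values (-4.03, adjusted p = 0.0186) called it. Median-ratio size factors did not (-3.52, edgeR adjusted p = 0.0601). It was called with a replicate block by label (edgeR adjusted p = 0.0129), in the fit without the tumours (edgeR adjusted p = 1.54e-16) and by DESeq2 (adjusted p = 2.39e-05), but not with a replicate block by transduction (edgeR adjusted p = 0.0821), and leaving out a day 0 or a day 14 library gave adjusted p from 0.224 to 0.618. In the tumours the sum was called with the replicate block by label (-2.37, edgeR adjusted p = 0.0267), by DESeq2 (adjusted p = 0.0147) and by limma (-3.00, adjusted p = 0.0409). The block by transduction (edgeR adjusted p = 0.116) and scaling to the non-targeting guides (-2.55, edgeR adjusted p = 0.0663) did not call it. Nor did the fit of tumours and day 0 alone (-1.95, edgeR adjusted p = 0.131). Leaving out replicate 2 gave -3.76 and leaving out replicate 1 gave -1.30.

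For KAT6A the second set sum was 122 and 898 CPM in tumours and 302 and 235 CPM at day 14, against 991 and 899 CPM at day 0. Its log2 fold changes were -0.89 in tumours (SE 0.732, edgeR adjusted p = 0.345) and -1.82 at day 14 (SE 0.75, edgeR adjusted p = 0.196), so that neither was called, although the day 14 sum was called in the fit without the tumours (edgeR adjusted p = 3.39e-07). The second tumour, with its many reads of sgRNA_1716, was level with day 0. Without tumour replicate 2 the sum was at -2.95, and without replicate 1 it was at -0.07, so its value turned on which tumour was kept.

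Of the first set sums, that of WDR5 rose in tumours, with 2852 and 6354 CPM in tumours and 2389.8 and 2004.8 CPM at day 14, against 1128 and 1624 CPM at day 0. Its log2 fold change in tumours was 1.74 (SE 0.394, edgeR adjusted p = 0.0146), as 23.3% of all sums were called higher there. This call was not made by limma on the authors' normalized values (1.14, adjusted p = 0.120). Nor was it made in the edgeR fit of tumours and day 0 alone (1.84, adjusted p = 0.0569). Scaling to the non-targeting guides ended this call (1.24, edgeR adjusted p = 0.0752), leaving out a day 0 or a day 14 library did so too (edgeR adjusted p 0.0528 to 0.163), a replicate block by transduction did as well (edgeR adjusted p = 0.0534), and without tumour replicate 2, the library rich in sgRNA_1455, the value was 1.05. The first set sums of KAT2A, 0.13 in tumours and 0.14 at day 14, and of KAT6A, 0.42 and 0.17, were not called against day 0 (lowest edgeR adjusted p 0.222).

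The sets were compared within each gene by the log2 ratio of the second set sum to the first set sum, with 1 CPM added to each, tested with limma over the 299 genes that had guides in both sets. This ratio does not depend on how the libraries were scaled to each other, apart from the added CPM. For WDR5 it was -3.66 and -4.60 in tumours and -2.80 and -3.66 at day 14, against 0.17 and -0.48 at day 0. For KAT2A it was -4.00 and -1.84 in tumours and -4.12 and -3.82 at day 14, against -0.17 and -0.43 at day 0. For KAT6A it was -3.90 and -1.15 in tumours and -2.31 and -2.87 at day 14, against -0.67 and -0.51 at day 0. In all 3 genes every library of both arms lay below both day 0 libraries, as was so in tumours for 67.9% and at day 14 for 88.3% of the 299 genes.

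In limma's fit the WDR5 ratio fell by 3.98 in tumours (SE 0.517, adjusted p = 0.00221) and by 3.08 at day 14 (SE 0.517, adjusted p = 0.0107). The KAT2A ratio fell by 2.62 in tumours (SE 0.667, limma adjusted p = 0.0192) and at day 14 fell by 3.67 (SE 0.667, limma adjusted p = 0.0112). For KAT6A the differences were -1.94 in tumours (SE 0.803, limma adjusted p = 0.0932) and -2.00 at day 14 (SE 0.803, limma adjusted p = 0.112), and neither was called. The KAT6A ratio was called at day 14 in the limma fit without the tumours (adjusted p = 4.31e-05) and in tumours when the mean over guides of log2(CPM + 1) took the place of the sums (-2.50, limma adjusted p = 0.0132). With the sums, the KAT6A difference in tumours was -0.56 without tumour replicate 1 and -3.31 without replicate 2. Among all genes in both sets, 37.1% were called lower in tumours and 15.4% at day 14, so that a lower second set was common in this library. The WDR5 call in tumours held without each library in turn (highest limma adjusted p 0.0391). Its day 14 call was lost without day 0 replicate 1 (-2.75, limma adjusted p = 0.139), day 0 replicate 2 (-3.40, limma adjusted p = 0.0539) or day 14 replicate 2 (-2.64, limma adjusted p = 0.0779). The KAT2A call at day 14 was lost without any day 0 or day 14 library (limma adjusted p 0.0624 to 0.139) and that in tumours without day 0 replicate 1 or 2 (limma adjusted p 0.125 and 0.0740), with -1.54 without tumour replicate 1 and -3.70 without replicate 2.

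Tumours were also set directly against day 14 cells. edgeR called 0 of the 29 member guides at an adjusted p of 0.05, against 0% of all guides called lower and 0.0277% called higher. At an unadjusted p under 0.05, 3 member guides were lower (5.54% of all guides), namely sgRNA_1718 of KAT6A at -3.95 (SE 0.834, edgeR adjusted p = 0.165), sgRNA_2466 of KAT2A at -3.89 (SE 1.00, edgeR adjusted p = 0.203) and sgRNA_588 of KAT6A at -2.96 (SE 0.719, edgeR adjusted p = 0.194). The 2 that were higher (8.54% of all guides) were sgRNA_1716 of KAT6A at 2.67 (SE 1.12, edgeR adjusted p = 0.349) and sgRNA_1455 of WDR5 at 2.13 (SE 0.797, edgeR adjusted p = 0.328), both set by tumour replicate 2. DESeq2 called the 3 lower guides (2.11% of all guides) and sgRNA_1455, which was higher. The share of all guides that DESeq2 called higher was not computed, so this rise is not set apart from the library. With limma, 0 member guides were called (0.333% of all guides lower), and the edgeR fit of tumours and day 14 cells alone called 0 (0% of all guides).

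None of the 6 member sums was called between tumours and day 14 by edgeR, where 2.63% of all sums were called higher. The second set sums differed by -0.04 for WDR5 (SE 0.447, edgeR adjusted p = 0.96), 1.5 for KAT2A (SE 0.757, edgeR adjusted p = 0.236) and 0.93 for KAT6A (SE 0.734, edgeR adjusted p = 0.445). The values of KAT2A and KAT6A turned on which tumour was kept, the lone tumour being assumed to vary like the other groups. Without tumour replicate 2 they were -0.21 (edgeR adjusted p = 0.795) and -1.14 (edgeR adjusted p = 0.0393), and without replicate 1 they were 2.26 (edgeR adjusted p = 1.46e-06) and 1.74 (edgeR adjusted p = 3.51e-06).

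Other genes of histone acetylation and methylation in the library were described from a list of 8, of which 6 were in the count table by their symbol, with 58 tested guides. They were TADA2B, an adapter that works with KAT2A in SAGA, ING3, a subunit of the acetyltransferase complex of TIP60, the methyltransferase PRDM7, the demethylase relative UTY, and RING1 and RNF2, the ubiquitin ligases of PRC1. At day 14, edgeR called 0 of their 58 guides and 0 of their 11 sums against day 0 (lowest adjusted p of a sum 0.0765). Of the whole library, 0% of guides and 2.63% of sums were called lower there. In tumours against day 0, edgeR called 0 of the guides lower (1.14% of all guides) and 1 higher, of PRDM7 (0.554% of all guides). It called 1 sum lower (10.8% of all sums) and 5 higher. The sum that fell was the second set of ING3, at -0.99 (SE 0.292, edgeR adjusted p = 0.0301). The sums that rose were the first set of TADA2B, at 1.14 (SE 0.288, edgeR adjusted p = 0.0184), and both sets of UTY and RNF2, among sums of which 23.3% were called higher.

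TADA2B had second set guides with a median log2 fold change of -2.83 in tumours and -1.22 at day 14, and its second set sum was at -0.70 in tumours (SE 0.315, edgeR adjusted p = 0.108) and -1.19 at day 14 (SE 0.318, edgeR adjusted p = 0.0765). RING1 second set guides had medians of -1.45 in tumours and -1.30 at day 14, whereas those of RNF2 had medians of 0.25 and -0.09. At day 14 the second set medians of TADA2B, RING1 and RNF2 all lay above those of WDR5, KAT2A and KAT6A. In tumours this did not hold for TADA2B, whose median of -2.83 lay below the -2.51 of KAT2A.

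The likeness of each gene to the others was read from the median log2 ratio of its second set guides to day 0 in the 4 tumour and day 14 libraries, over 347 genes with at least 3 such guides, and the distance was Euclidean. For WDR5 the medians were -3.23 and -4.37 in tumours and -4.88 and -4.69 at day 14, and the nearest genes were RPS27A (distance 1.64), RPL14 (1.83) and USP7 (1.84). RPS27A and RPL14 encode ribosomal proteins and USP7 a deubiquitinase. For KAT2A the medians were -5.59 and -4.13 in tumours and -3.58 and -3.79 at day 14, and the nearest genes were UBA2 (0.912), CDT1 (1.23) and BRD9 (1.68), which encode a subunit of the SUMO activating enzyme, a replication licensing factor and a subunit of a BAF chromatin remodelling complex. For KAT6A the medians were -4.21 and -2.62 in tumours and -1.99 and -1.82 at day 14, and the nearest genes were TLCD1 (0.583), PTTG1 (1.09) and TSTA3 (1.22). Neither of the other 2 genes was among the 3 nearest of any member. These distances rest on 4 libraries and are a description only.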

How the data were processed

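Guides were counted in 6 libraries of HS-SY-II Cas9 cells, 2 each of tumours, day 14 and day 0. The authors deposited raw read counts for each guide, which they obtained by mapping to their library with MAGeCK, and the submitters' processing notes also name hg38, neither with a version. A table of normalized signal deposited by the authors is each count column times 1 constant per library (the sources used here do not give its rule). Columns were assigned to samples by name.

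Guides averaging 30 or more day 0 counts were kept. The quasi-likelihood test of edgeR 4.0.16 (R 4.3.3) was run after TMM scaling on the 6 libraries together, without a block, per guide and for sums of guides per gene and guide set, with Benjamini-Hochberg adjustment at 0.05. The SE is the absolute log2 fold change over the root of the F statistic. Common dispersion was 0.303 for guides and 0.0756 for sums. The ratio of guide sets was fitted with limma 3.58.1 on log2 values. The procedure was tested on simulated data with known changes.

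An exact permutation of 2 against 2 libraries cannot go below a two-sided p of 0.333, so p-values rest on models that share the spread over guides. PCR reads are not independent molecules, so intervals cover counting error only. Alternatives were median-ratio size factors, scaling to non-targeting guides, other filters, DESeq2 1.42.0, limma on the authors' normalized values, fits of 2 groups, replicate blocks, other thresholds and pseudocounts, and leaving out each library. The members and gene lists were chosen with earlier results of these data known. All guides of the members were taken, and single guides were named and given values where the results turned on them. Of the list of 8 other histone genes, the 6 in the count table were named, and TADA2A and AEBP2 were not in it by these symbols. The 3 genes nearest to each member were named. The genes' coordinates were read from the GENCODE annotation of hg38, and the files hold no coordinates.

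By the methods, each transduced pool was sampled at day 0 and then split into culture and several mice, but the source of the tumours is not settled, since the supplement of the study puts both in replicate 1 whereas the labels number them 1 and 2. Deviations from the group means of same-numbered libraries had correlations of 0.0694 for day 14 and day 0, 0.00198 for tumours and day 0 and 0.00252 for tumours and day 14.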

Additional observations from a re-analysis of the deposited data

How the results depend on the processing

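Against day 0, no second set sum of the 3 genes changed direction under any alternative run. These had 2 libraries per group, or 1 in the group from which a library was left out. The value smallest in size was that of KAT6A in tumours without tumour replicate 1, at -0.07. The count of member guides called lower at day 14, 0 with edgeR, was 7 with DESeq2, 3 with limma and 11 in the fit of day 14 and day 0 alone, and 0 to 10 with a library left out (10 without either tumour). In tumours against day 0 the count of member guides called, 4 and all lower, became 11 with DESeq2 (9 lower, 2 higher), 8 with limma (all lower), 9 at an adjusted p of 0.1 (8 lower, 1 higher), and 0 in the fit of tumours and day 0 alone, with the replicate block by label and with the replicate block by transduction, and ran from 0 to 14 with a library left out. Between tumours and day 14 the count called in either direction, 0 with edgeR, was 4 with DESeq2 (3 lower, 1 higher) and 0 to 8 with a library left out (8 without tumour replicate 1, 7 without tumour replicate 2).

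Of the 6 sums, the 1 called at day 14 became 2 with scaling to non-targeting guides, DESeq2, limma, the replicate block by label and an adjusted p of 0.1, 4 in the fit of 2 groups and 0 with the replicate block by transduction, and ran from 0 to 4 with a library left out. The 2 called in tumours against day 0 became 3 with DESeq2, the replicate block by label and an adjusted p of 0.1, 1 with scaling to non-targeting guides and with the replicate block by transduction and 0 in the fit of 2 groups, and ran from 0 to 4. Between tumours and day 14 the count of 0 was 1 with DESeq2 and ran from 0 to 3. Of the 3 guide set ratios the 2 called at day 14 became 3 in the fit of 2 groups and ran from 0 to 3 with a library left out, and the 2 called in tumours became 3 with the mean over guides and ran from 1 to 3. The replicate block by label left both ratio counts at 2. Of the 4 sums called at day 14 in the fit of 2 groups, that of the WDR5 first set rose (0.68, edgeR adjusted p = 0.000846) and the others fell. With limma the 2 sums called in tumours were the second sets of WDR5 and KAT2A, and that of the WDR5 first set was not called. Why a call was lost was not tested. Where a library was left out, the fit also had fewer libraries. The share of all guides called lower is given further above for DESeq2, limma and the fits of 2 groups. For the other alternative settings, and for sums and ratios under any of them, that share was not computed. The share called higher was not computed under any alternative setting. Counts without such a share therefore describe how calls shift and do not set the members apart from the library.

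Values that changed sign were small or rested on 1 library, and 1 of them was called on the other side, the KAT6A second set sum between tumours and day 14 (0.93, from -1.14 to 1.74 with a library left out). With scaling to non-targeting guides, the first set sums of KAT2A were -0.42 in tumours and -0.39 at day 14, those of KAT6A -0.13 and -0.36, and sgRNA_589 -0.18 at day 14. With limma these were -0.37, -0.35, -0.080, -0.33 and -0.12, and sgRNA_1716 in tumours was -0.27. Between tumours and day 14 the KAT2A first set sum was 0.044 with median-ratio size factors, 0.045 with DESeq2 and 0.0053 in the fit of 2 groups, and the WDR5 second set sum was 0.016 with median-ratio size factors and with DESeq2, 0.054 with limma and 0.036 with the replicate block by label. With a library left out, the KAT2A first set sum ran from -0.041 to 0.43 in tumours, from -0.029 to 0.39 at day 14 and from -0.17 to 0.12 between them, the WDR5 second set sum from -0.44 to 0.69 and the KAT2A second set sum from -0.21 to 2.26 between them, sgRNA_1716 from -1.36 to 1.75 in tumours and sgRNA_1590 from -0.38 to 1.65 at day 14.

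Depth limited the rarest guides, such as sgRNA_1588 with 3 reads in each day 14 library, and sgRNA_2468 with 2 reads in 1 tumour. Whether the labels' numbers or the transductions pair the libraries is open in the sources.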
